A study of Arabidopsis thaliana with 12 samples.

Results

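The response of Arabidopsis thaliana seedlings to the calmodulin antagonist W7 was measured as the ratio of W7-treated to DMSO-treated RNA on 2-colour cDNA arrays. The 3 arrays that the labels title W7 against DMSO, replicas 1 to 3, make up the experiment described here, out of 12 arrays in the series. The other arrays, 3 for each comparison, compare trifluoperazine (TFP) with DMSO, W7 with W7 after lanthanum (written La plus W7), and W7 after lanthanum with DMSO after lanthanum (La plus DMSO). All seedlings were treated for 1 h. In the W7 experiment neither the W7 seedlings nor the DMSO seedlings, which received the solvent as control, had a lanthanum pretreatment, whereas both RNAs of the La plus W7 against La plus DMSO arrays came from pretreated seedlings. No source used here gives doses, ecotype or seedling age. The series' design text calls the 3 arrays of each experiment independent biological repeats. W7 RNA was labelled with Cy3 on replicas 1 and 3 and with Cy5 on replica 2.

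Calmodulin is a small calcium sensor protein. When calcium binds, it exposes hydrophobic surfaces that grip target proteins, which in plants include calcium pumps of the plasma and inner membranes, protein kinases and the CAMTA family of transcription factors. W7, a naphthalenesulfonamide, and TFP, a phenothiazine, occupy these surfaces and block binding to the targets. Lanthanum ions block calcium entry through the channels of the plasma membrane, so that a pretreatment with them is used to ask how much of a response needs calcium influx. The labels carry this reading, as they write W7 alone as W7 with calcium and La plus W7 as W7 without it.

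Each array carried 11952 spots of expressed sequence tags (EST clones, cDNA fragments of Arabidopsis transcripts), which stood for 11926 clones. A ratio was used for 9397 clones that were brighter in at least 1 channel than 95% of the blank spots, on W7 replica 1 and on W7 replica 3. The files name clones by EST identifier and do not pair them with genes, and none of the 11926 identifiers matched the supplied gene table. Results are therefore given by clone, no role can be assigned to a clone, several clones may stand for 1 gene, and the labelled tissue could not be checked against marker genes. The RNA came from whole seedlings, so a change in the number of cells of a type and a change in RNA per cell cannot be told apart.

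The 3 W7 arrays differed in quality and in their likeness to one another. The scanner file under replica 2 is a copy of that under replica 1, so replica 2 is known only from the authors' deposited ratio. Log2 ratios spread over clones with an SD of 0.59, 0.53 and 0.85 on replicas 1, 2 and 3, and the median ratio on each was within 0.06 of 0 on the log2 scale. Intensity at the median EST spot was 1406 in the W7 channel and 1369 in the DMSO channel on replica 1, and 859 and 667 in the same channels on replica 3, where 80.2% of EST spots were above the blanks, against 95.6% on replica 1. Across clones, which are not independent replicates, replicas 1 and 2 correlated at r = 0.50, replicas 2 and 3 at 0.41 and replicas 1 and 3 at 0.34. Each W7 array was most like an array of another experiment, namely replica 1 with array 1 of W7 against La plus W7 (r = 0.55), replica 2 with TFP array 1 (r = 0.66) and replica 3 with TFP array 2 (r = 0.61). No source used here says whether these arrays shared RNA. Replica 3 and array 2 of W7 against La plus W7 correlated at r = -0.32.

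The first question was which transcripts differed between W7 and DMSO seedlings after 1 h. W7 raised 392 clones and lowered 234 in the limma fit at an adjusted p under 0.05, which is 4.17% and 2.49% of all clones tested and 6.66% for both directions. The raised clones had a median fitted log2 ratio of 1.29, a ratio of 2.44, and 287 reached 1, 73 reached 2 and 12 reached 3. Among lowered clones the median was -1.04, a ratio of 0.486, and 127 reached -1, 10 reached -2 and none reached -3. Fitted values of the raised clones lay between 0.64 and 4.36 and those of the lowered clones between -2.59 and -0.62. The median SE was 0.24 for raised and 0.22 for lowered clones. SEs and p-values rest on a spread per clone estimated over all 12 arrays, not on the 3 W7 arrays alone. At an unadjusted p under 0.05 there were 1815 clones.

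The called clones had the same sign on nearly every array, which is what the test selects for. Of the 392 raised clones 389 were above 0 on all 3 W7 arrays, and of the 234 lowered clones 231 were below 0 on all 3, while 38.3% of all clones tested kept 1 sign on the 3 arrays. The raised exceptions, H77004, T46263 and R64940, were each below 0 on replica 3 only, at -0.29, -0.01 and -0.25. Of the lowered exceptions T76801 was at 0.01 on replica 3, H37095 at 0 on replica 3, and N97274 at 0.04 on replica 1. The median SD over the 3 arrays was 0.39 for raised clones, 0.36 for lowered clones and 0.39 for all clones tested. A log2 ratio of at least 1 on every W7 array was found for 165 clones, and one of -1 or less on every W7 array for 42 clones. All 207 were called. Another 153 clones passed 1 on 2 arrays and 875 on 1 array only, and on the low side 118 passed -1 on 2 arrays and 1155 on 1 array.

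**Figure D1:**
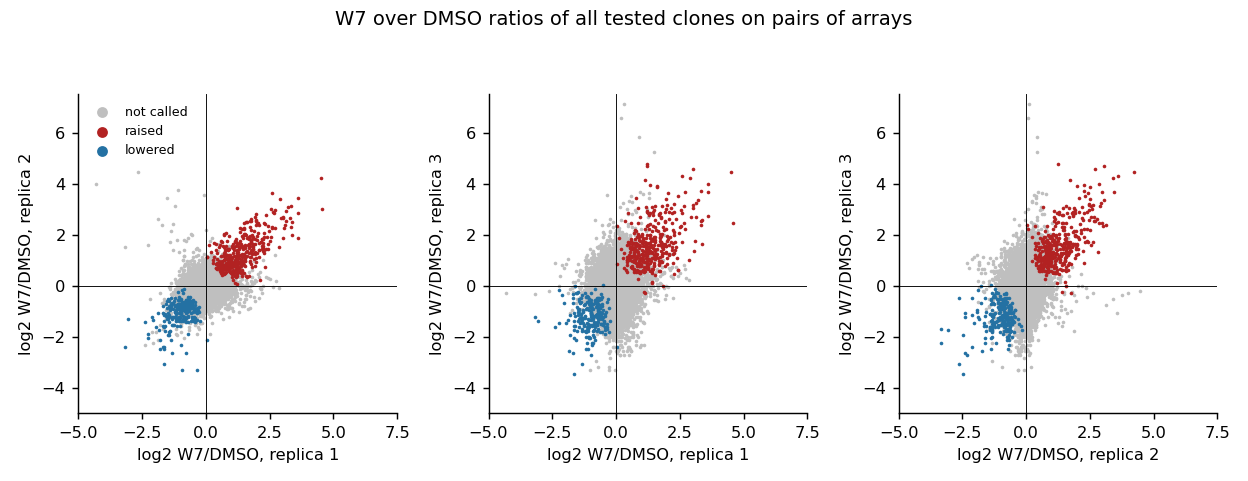
Each panel plots the log2 ratio of W7 over DMSO for 9397 clones on 1 array against another, with raised clones in red, lowered clones in blue and uncalled clones in grey. The called clones lie along the diagonal, and replica 3 has a wider vertical spread of uncalled clones (SD 0.85 over all clones) than replica 2 (SD 0.53).

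How far the response repeats was also read on an array left out of the fit. Replicas 1 and 3 still took part in the filter on brightness. Fitted without replica 1, W7 raised 259 clones, and their median log2 ratio on replica 1 was 1.40, with 252 above 0 and 186 at 1 or more. Without replica 2 there were 194 raised clones, with a median of 1.51 on replica 2, 193 above 0 and 144 at 1 or more. Without replica 3 there were 247, with a median of 1.57 on replica 3, 235 above 0 and 184 at 1 or more. The median fitted log2 ratios of these raised clones, from the arrays kept, were 1.57, 1.93 and 1.51 without replicas 1, 2 and 3. The medians of all clones on the arrays left out were -0.03, -0.03 and -0.06, and 46.5%, 45.5% and 46.5% of all clones were above 0.

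The lowered clones were likewise below 0 on the array left out in most cases. Of the 155 clones lowered without replica 1, 149 were below 0 on it, with a median of -0.86. All 67 clones lowered without replica 2 were below 0 on it, with a median of -1.03. Of the 137 clones lowered without replica 3, 108 were below 0 on it, with a median of -0.74. The median fitted log2 ratios of these lowered clones, from the arrays kept, were -1.24, -1.56 and -1.19 without replicas 1, 2 and 3. Among all clones 52.2%, 53.1% and 52.8% were below 0 on replicas 1, 2 and 3.

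**Figure D2:**
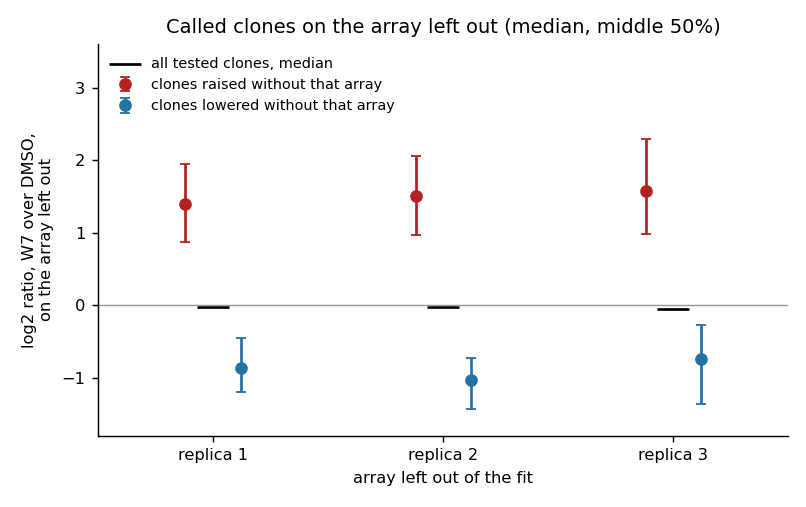
Points are the median log2 ratio (W7 over DMSO) on the array left out of the fit, for clones called without it, with bars over the interquartile range and black lines at the median of all 9397 clones. Raised clones had medians of 1.40, 1.51 and 1.57 and lowered clones -0.86, -1.03 and -0.74 on replicas 1, 2 and 3.

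The strongest rise was that of clone T22041, with log2 ratios of 4.52, 4.21 and 4.46 on replicas 1, 2 and 3. Its raw intensities on replica 1 were 26307 in the W7 channel and 1222 in the DMSO channel, and on replica 3 they were 14412 and 789. W7 RNA was thus far brighter in either scan, and the 3 ratios had an SD of 0.16. The fitted log2 ratio was 4.36 (SE 0.17, n = 3 arrays), a ratio of 20.6, with an adjusted p of 1.2e-08 in limma.

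Clone T43596 was next, at 3.62, 3.42 and 3.68 on the 3 arrays. Its fitted log2 ratio was 3.66 (SE 0.22, adjusted p = 1.3e-06 in limma), a ratio of 12.7. Clones N65907 and R29923 were about as even between arrays, with SDs of 0.15 and 0.16 over the 3 arrays and fitted log2 ratios of 3.24 and 3.15. These 4 clones had the smallest spread of the 12 highest clones, whose fitted log2 ratios ran between 3.04 and 4.36.

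Other clones among the 12 highest rose on every array but by unequal amounts. N38224 had log2 ratios of 2.59, 3.61 and 4.28 on replicas 1, 2 and 3 and a fitted value of 3.49 (SE 0.27). H37034 had 3.03, 2.70 and 4.57 and a fitted value of 3.42 (SE 0.33). Replica 3 gave the highest ratio for both. T44208 ran the other way, with 4.57 on replica 1, 2.99 on replica 2 and 2.44 on replica 3, and a fitted value of 3.24 (SE 0.45). T43007 had the widest spread of the 12, at 1.23, 3.04 and 4.67 (SD 1.72), with a fitted value of 3.07 (SE 0.50). On replica 1 its raw intensity was 23292 in the W7 channel and 10549 in the DMSO channel, and on replica 3 it was 34987 and 2204. The median EST spot was at 1406 (W7) and 1369 (DMSO) on replica 1, and at 859 and 667 on replica 3. As the scans differed in brightness, the raw values do not show which channel of T43007 changed more. The remaining clones of the 12, T42340, N97207, T46733 and H76724, had fitted log2 ratios of 3.43, 3.41, 3.14 and 3.04, and every one of the 12 was above 1 on all 3 arrays. Their adjusted p-values in limma ran between 1.2e-08 and 0.0022.

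The falls were smaller. H77253, the lowest clone, had log2 ratios of -1.64, -2.47 and -3.47 on replicas 1, 2 and 3. Its raw intensity was 1936 in the W7 channel and 6314 in the DMSO channel on replica 1, and 1148 and 15574 on replica 3. The fitted log2 ratio was -2.59 (SE 0.55, adjusted p = 0.012 in limma). N64947 followed at -1.32, -2.64 and -3.06, with a fitted value of -2.58 (SE 0.46). Both were lowest on replica 3 and highest on replica 1.

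T44766 showed the opposite order of arrays, with -3.18, -2.40 and -1.25 on replicas 1, 2 and 3 and a fitted log2 ratio of -2.32 (SE 0.34). AA067554 was at -0.94, -3.32 and -2.25, with a fitted value of -2.33 (SE 0.34). The least even of the 12 lowest was T75687, at -0.36, -3.32 and -1.69 (SD 1.48), with a fitted value of -2.00 (SE 0.45, adjusted p = 0.017 in limma). The most even were N65342 and T20932, with SDs of 0.36 and 0.40 and fitted log2 ratios of -2.21 and -1.97. The other members of the 12, N97158, N38107, N65297, T21036 and N65018, had fitted log2 ratios of -2.36, -2.24, -2.22, -2.12 and -1.91. The calls of T75687 and N65297 held in 19 of 24 alternative fits, that of H77253 in 20, those of AA067554 and N38107 in 21 and that of N65018 in 23, and the others of the 12 held in all 24. SDs over arrays ran from 0.36 to 1.48 in the 12 lowest clones and from 0.13 to 1.72 in the 12 highest.

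**Figure D3:**
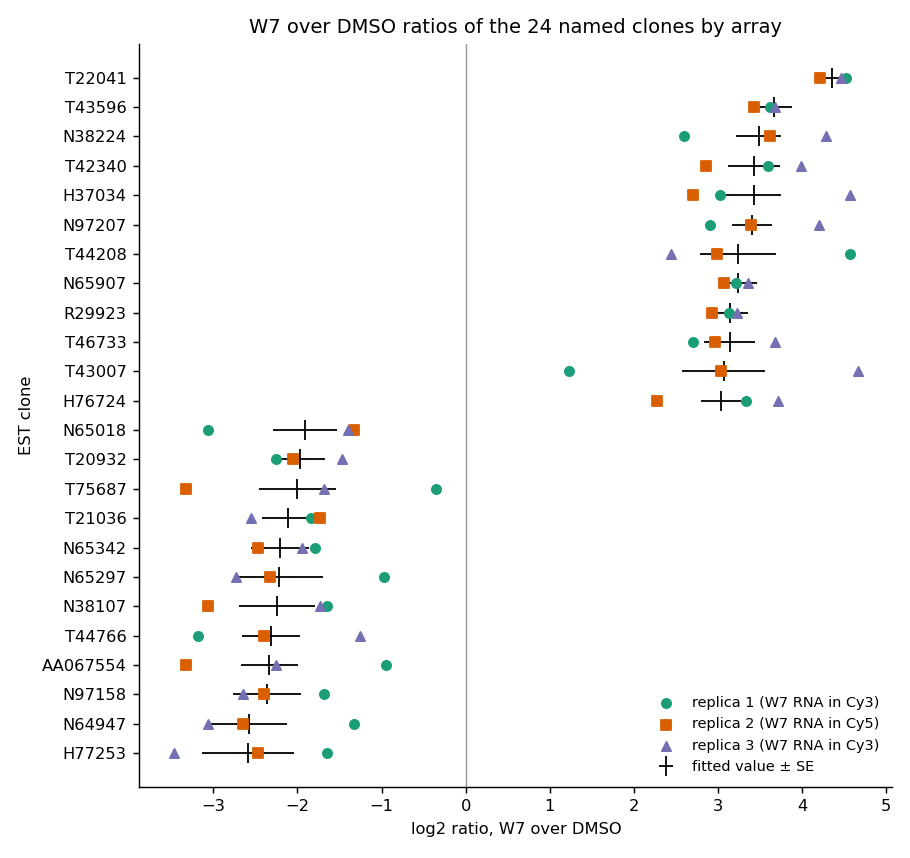
The log2 ratio of W7 over DMSO is shown for the 12 highest and the 12 lowest called clones, with 1 marker per array and a cross at the fitted value with its SE. The raised clones lie between 1.23 and 4.67 on every array, and the lowered clones between -3.47 and -0.36.

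Some called clones had 1 channel not above the blanks on both scanned arrays, so that their ratio is only a bound. In 5 raised clones this was the DMSO channel. N97118 was at least 2.52-fold higher with W7 than with DMSO, with intensities of 714 (W7) and 157 (DMSO) on replica 1 and 553 (W7) and 95.6 (DMSO) on replica 3. R89967 was at least 1.86-fold and N37543 at least 1.64-fold higher. In 5 lowered clones it was the W7 channel. T45353 was at least 2.58-fold lower with W7, with intensities of 263 (W7) and 528 (DMSO) on replica 1 and 421 (W7) and 667 (DMSO) on replica 3. T21211 was at least 1.85-fold and T21006 at least 1.78-fold lower. Their adjusted p-values in limma were 0.021, 0.014 and 0.011 for N97118, R89967 and N37543, and 0.0046, 0.019 and 0.0054 for T45353, T21211 and T21006, and test the measured ratio, not the bound. The bound sets the bright group's normalized mean against the dimmest signal above the blanks or the dim spot's own, whichever was higher. No error was computed for the bounds. Across 23 alternative fits the call of N97118 held in 16 and those of R89967, N37543 and T21211 in 18. The calls of T45353 and T21006 held in 20 and 23. Both channels were above the blanks on both scanned arrays for 374 of the 392 raised and 196 of the 234 lowered clones. The only called clone at the scanner's ceiling of 65535 was AA042713, in the W7 channel of replica 1.

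A check within the array came from the 26 clones spotted more than once. The deposited table gives both spots of a clone the same value, in 26 of 26 clones, so it holds no spread between spots. In ratios computed from the scanner intensities, the spots of 1 clone differed by a median of 0.37 on the log2 scale on replica 1 (at most 1.79) and of 0.78 on replica 3 (at most 2.07). These medians take in all 26 clones, dim and untested ones included. The spots of a clone could differ widely in brightness, as for T21358 at 897 and 16567 in the W7 channel of replica 1. The gaps therefore do not measure error at equal brightness. Of the 26 clones 24 were tested. W7 raised 4 of them, with fitted log2 ratios of 2.26 for T21358, 1.21 for T44899, 1.11 for T88073 and 0.83 for T44389, and lowered none, where 4.17% of all tested clones were raised and 2.49% lowered. Across 24 alternative fits the call of T21358 held in 24, those of T44899 and T88073 in 22 and that of T44389 in 10 (adjusted p of up to 0.27 in limma). T21358 was at 2.19, 1.81 and 2.86 on the 3 arrays.

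Calls were more frequent among bright clones. Clones were split by mean intensity into 4 groups of 2349 or 2350. In the dimmest group (median 443) 1.70% were raised and 1.23% lowered, in the next (median 953) 4.38% raised and 1.83% lowered, in the third (median 1910) 4.77% raised and 2.98% lowered, and in the brightest (median 6117) 5.83% raised and 3.92% lowered. The median SD over arrays was 0.38, 0.37, 0.38 and 0.43 in the same order. By the first letters of the EST identifier the raised share ran from 1.89% of the 848 clones with AA to 5.44% of the 551 with W. By printing block on the slide, of which there were 32, the raised share ran from 0.84% to 10.3% (median 4.23%) and the lowered share from 0% to 5.88% (median 2.36%). The part of brightness, identifier series and slide position in these shares was not tested.

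The count of called clones changed with the arrays and the settings used. It was 414, 261 and 384 without replicas 1, 2 and 3, and 313 with the W7 arrays alone, of which 237 were raised and 76 lowered. Scanner intensities in place of the deposited ratios, with replica 2 left out for want of a file, gave 193 raised and 56 lowered, and array weights gave 690 raised and 659 lowered.

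**Figure D4:**
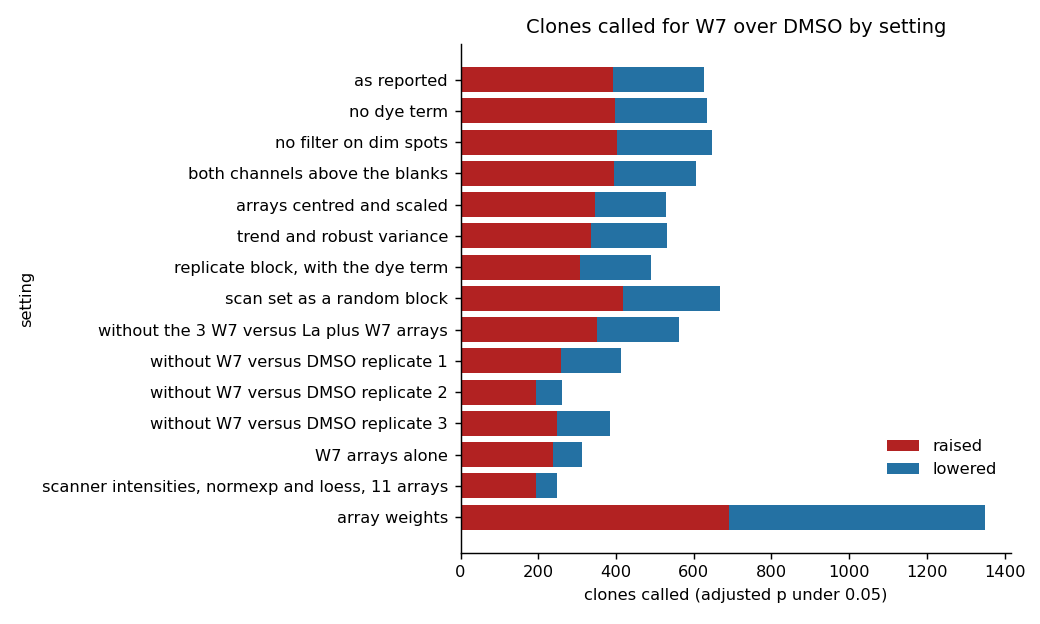
Bars give the number of clones called raised (red) and lowered (blue) for W7 over DMSO under each setting of the fit, starting at 0. The count was 626 as reported, 249 with scanner intensities on 11 arrays and 1349 with array weights, and raised clones outnumbered lowered clones under every setting shown.

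The second comparison set the W7 response beside that to TFP, the other calmodulin antagonist. The labels give no dose of either compound, so the values stand side by side. The clones that W7 raised had median log2 ratios of 1.24, 1.17 and 1.48 on the 3 W7 arrays and of 1.14, 1.18 and 0.87 on the 3 TFP arrays. The clones that W7 lowered had medians of -0.97, -0.94 and -1.18 on the W7 arrays and of -0.77, -0.71 and -0.32 on the TFP arrays. The W7 values chose these clones, so their larger size on the W7 arrays is no result. T22041 had 4.52, 4.21 and 4.46 with W7, against 3.34, 3.61 and 3.82 with TFP. T43596 had 3.62, 3.42 and 3.68 with W7, against 3.35, 3.86 and 2.92 with TFP. The 12 highest W7 clones had fitted TFP log2 ratios between 2.02 and 3.63, and the 12 lowest between -2.28 and -0.65.

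The difference between the W7 and TFP ratios passed the threshold in limma for no clone, with 0.0% called higher and 0.0% called lower. At an unadjusted p under 0.05 there were 272 clones, and the lowest adjusted p was 1.00. For a typical clone (the median) the 95% interval of the difference reached 0.70 log2 units either way. The lack of calls therefore does not show that both compounds act alike. The 272 clones are fewer than this threshold passes on average when nothing differs, so the test may be conservative. The fit took all arrays as independent, but deviations of W7 and TFP arrays from their group means correlated at -0.47 to 0.47. The effect of this on the interval was not tested. For T22041 the difference was 0.74, with an interval from 0.21 to 1.26. For N65907 it was 0.14 (-0.58 to 0.85), and for T44766, lower with W7, it was -1.37 (-2.44 to -0.29). These intervals are for single clones and are not corrected for the number tested. The clones were named for their extreme W7 values, and that choice favours a difference in the direction of the W7 change. Their intervals therefore do not show a difference between W7 and TFP.

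The third comparison asked whether W7 changed the same transcripts in seedlings pretreated with lanthanum. The clones that W7 raised without lanthanum had median log2 ratios of 1.24, 1.17 and 1.48 on the W7 over DMSO arrays and of 0.12, 0.19 and 0.27 on the La plus W7 over La plus DMSO arrays. The clones that W7 lowered had medians of -0.97, -0.94 and -1.18 on the W7 over DMSO arrays, and of -0.12, -0.13 and -0.05 on the La plus W7 over La plus DMSO arrays. On the arrays that set W7 directly against La plus W7, which hold no DMSO RNA, the raised clones had medians of 0.65, 0.53 and 0.64 and the lowered clones -0.66, -0.44 and -0.58. W7 RNA carried Cy3 on all 3 of these arrays, so a dye effect and the difference between the RNAs cannot be told apart within them. All of these medians use clones that the W7 over DMSO arrays chose. The 3 arrays of La plus W7 over La plus DMSO correlated with each other at -0.16, -0.10 and 0.16 across clones. Over all EST spots their log2 ratios had SDs of 0.49, 0.31 and 0.35 on replicas 1, 2 and 3. The W7 over DMSO arrays had SDs of 0.59, 0.53 and 0.80 over the same spots. The part of this narrower spread in the medians with lanthanum was not tested.

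The test of the difference itself, the W7 ratio without lanthanum minus the W7 ratio with it, called 74 clones in limma. The difference was above 0 for 59 clones, 0.628% of those tested, and below 0 for 15, 0.16% of those tested, with 956 clones at an unadjusted p under 0.05. In the 59 clones the median fitted log2 ratio was 2.26 for W7 over DMSO and 0.29 for La plus W7 over La plus DMSO, and the median difference was 2.04. In the 15 clones it was -1.50 for W7 over DMSO and 0.11 with lanthanum, and the median difference was -1.65. Of the 15, H76796 alone was not called for W7 against DMSO, at a fitted log2 ratio of -0.82 without lanthanum and 1.16 with it. The W7 arrays enter both tests. The arrays of the 2 ratios did not overlap for any of the 74 clones, while this held for 9.15% of all clones on the high side and 7.65% on the low side. The same arrays called the 74 clones, so the lack of overlap is what the test selects for.

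T22041 had log2 ratios of 4.52, 4.21 and 4.46 for W7 over DMSO, against 0.71, 0.59 and 0.77 for La plus W7 over La plus DMSO. The difference was 3.63 (SE 0.25, adjusted p = 1.3e-05 in limma). On the arrays of W7 over La plus W7 the clone had 3.24, 2.81 and 3.10. Among called clones with both channels above the blanks, the next largest differences were those of N38224 at 2.96 (SE 0.38), H37034 at 2.94 (SE 0.47) and T46733 at 2.80 (SE 0.43), with adjusted p-values of 0.0042, 0.014 and 0.012. On the single arrays of La plus W7 over La plus DMSO these 3 clones lay between -0.01 and 0.85. On the arrays of W7 over La plus W7, N38224 had 1.58, 1.54 and 1.66 and H37034 had 1.43, 0.52 and 1.74. T46733 had 0.41, 0.53 and 1.42 there. All of these values were smaller than the differences. No array set La plus DMSO against DMSO, so an effect of lanthanum on the control was not measured.

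On the low side T44766 had log2 ratios of -3.18, -2.40 and -1.25 for W7 over DMSO, against 0.04, 0.45 and 0.66 with lanthanum. The difference was -2.74 (SE 0.50, adjusted p = 0.026 in limma). N65441 had -1.94, -1.64 and -1.47 without lanthanum and 0.49, -0.14 and 0.23 with it, a difference of -2.00 (SE 0.41, adjusted p = 0.045). The difference was -1.94 for N37424 (SE 0.33) and -1.78 for N65497 (SE 0.35). All 4 were below -1 on every W7 over DMSO array, and above -0.22 on every array with lanthanum.

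**Figure D5:**
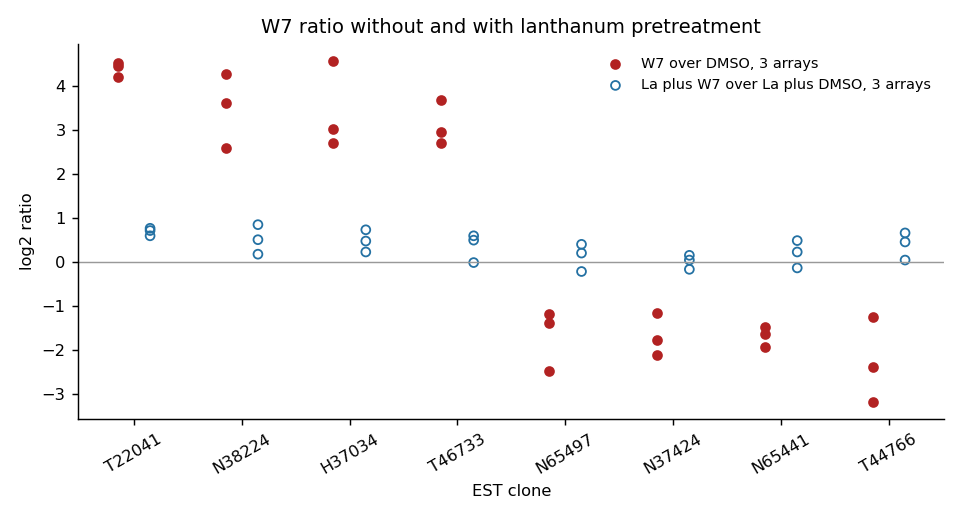
For 8 clones, filled red circles give the log2 ratio of W7 over DMSO on 3 arrays and open blue circles that of La plus W7 over La plus DMSO on 3 arrays. T22041 lies at 4.21 to 4.52 without lanthanum and at 0.59 to 0.77 with it, and T44766 at -3.18 to -1.25 without lanthanum and at 0.04 to 0.66 with it.

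The count of 74 was not stable. It was 0 when arrays were scaled to a common spread and 0 with the image folder named in the scanner headers as a fixed term. In that last fit W7 replica 2, whose folder is not known, took a level of its own and added nothing to the difference. No known folder held arrays of both experiments, so no value within a folder can be given. The count was 46, 11 and 48 without W7 over DMSO replicas 1, 2 and 3, 4, 11 and 35 without La plus W7 over La plus DMSO replicas 1, 2 and 3, 45 without TFP replica 1 and 42 without W7 over La plus W7 replica 1.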

How the data were processed

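The authors deposited 1 value for every spot of each array. These values behave as a linear ratio of the first named over the second RNA: the W7 columns had medians of 0.97, 0.98 and 0.98, and log2 of them correlated at r = 0.9986 with loess ratios computed from the scanner files of W7 replicas 1 and 3. Their normalization was not given in the sources used here. Scanner intensities were deposited too, raw per the file headers. The copied file of W7 replica 2 (Spearman correlation of its raw ratio with the deposited ratio 0.31, against 0.89 for replica 1) was not used. Directions follow the dyes in the labels.

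From these ratios were dropped 323 blank, 12 N/A and 1 unnamed spots, and clones with neither channel above the 95th percentile of the blanks on both W7 replicas 1 and 3. Spots of a clone were averaged. Log2 ratios of all 12 arrays entered 1 fit (lmFit and eBayes, limma 3.58.1, R 4.3.3) with a coefficient per experiment and a dye term (7 residual and 6.17 prior degrees of freedom). The dye term was called for 0 clones. Values called fitted come from it and can differ from the mean of the arrays. P-values were adjusted by Benjamini-Hochberg over 9397 clones. Precision is limited by the number of arrays. The fit was tested only on simulated data whose noise was independent and of equal spread on all arrays, unlike the real arrays.

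Named were the 12 highest and 12 lowest called clones with both channels above the blanks and 1 sign on 3 arrays, the 3 highest and 3 lowest bounds, called clones spotted more than once, and the 4 largest differences each way. Clones outside this rule were chosen after their values were seen. The experiment, lists and tests were chosen with earlier results of these data known. Gene lists were not applied, as 0 clones matched the table of 38312 genes.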

Additional observations from a re-analysis of the deposited data

Results flagged for a closer look

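The W7 ratio differed between seedlings without and with lanthanum in a direct test of the difference, which called 74 clones in limma. The count was 0 with scaled arrays and with the image folder as a fixed block, 4 without La plus W7 over La plus DMSO replica 1, and 637 with array weights. The fitted difference, without lanthanum minus with it, was 3.63 for T22041, 2.96 for N38224, 2.94 for H37034 and 2.80 for T46733 on the log2 scale. It was -2.74 for T44766, -2.00 for N65441, -1.94 for N37424 and -1.78 for N65497. Across 25 alternative fits the call of T22041 held in 23, with differences between 2.95 and 3.71 and adjusted p-values of up to 0.22. That of N65497 held in 8 and that of N65441 in 9, with adjusted p-values of up to 0.28 for either. No difference changed sign in these fits.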

How the results depend on the processing

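The count of 626 clones for W7 against DMSO was 313 with the W7 arrays alone, 249 and 253 with scanner intensities with and without background correction, and 1349 with array weights, and ran from 261 to 707 when each of the 12 arrays was left out in turn. Scanner intensities also leave out W7 replica 2. The image folder of this array is not known, so it formed a level of its own wherever the folder entered a fit. Without the dye term, without the filter, with both channels above the blanks, with scaled arrays, with trend and robust variance, and with the image folder as a random block it was 634, 646, 605, 528, 532 and 668. Leaving out the 3 arrays that set W7 beside La plus W7, a setting chosen after seeing the data, gave 562, and 533 of the 626 were called again. The difference from TFP called 0 clones under every alternative, the replicate block included. The count of 74 for the difference from La plus W7 was 49 without the filter, 10 and 11 with scanner intensities with and without background correction, 0 with scaled arrays, 637 with array weights, 16 with trend and robust variance, 0 with the image folder as a fixed block (1303 at an unadjusted p under 0.05, without the dye term, chosen after seeing the data), and 4 to 99 with 1 array left out. Values nearer 74 were 95 with no dye term, 106 with the 2 experiments alone, 71 with both channels above the blanks, 78 with the folder as a random block and 53 without the same 3 arrays. The 207 clones past 1 on all 3 W7 arrays were 207 without the filter, 196 with both channels above the blanks and 187 with scaled arrays. With the replica number as a replicate block, the counts were 490 for W7 against DMSO and 41 for the difference from La plus W7. Of 18 pairs of arrays with the same number in different experiments, 5 deviated together at r over 0.1 (range -0.57 to 0.43), so the numbers were not taken to pair the samples. Some arrays of unlike number deviated together too. The r was 0.47 for W7 replica 3 with TFP array 2, 0.38 for replica 2 with TFP array 1, and 0.33 for replica 1 with TFP array 3. Other pairs of a W7 and a TFP array ranged from -0.47 to 0.25. The replicate block does not pair the arrays of unlike number. Of the 37 named clones 23 kept their W7 call under every alternative, and none changed sign. The cause of these changes was not tested, apart from the fewer arrays that some settings use. Spots near the blanks limit dim clones, and replica 2 could not be checked against its own scan. Replica 2 had the highest of the array weights.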

Other observations

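Among all tested clones 45 were at 1 or more on 1 W7 array and at -1 or less on another on the log2 scale. The clones given here were chosen after their values were seen. The most opposed were R90171, at -4.32, 3.99 and -0.30 on replicas 1, 2 and 3, T75925, at -2.64, 4.46 and -0.20, and T75931, at -1.51, 3.42 and -0.54. In each the deposited ratio favoured the RNA that carried Cy5 on replicas 1 and 2, since W7 RNA was in Cy3 on replica 1 and in Cy5 on replica 2. The channel intensities of replica 2 are not known. R90171 had a raw intensity of 768 in the W7 channel and 16962 in the DMSO channel on replica 1, and 537 and 394 on replica 3. R30517, which did not pass the filter on dim spots, had deposited ratios of 0.02, 119.4 and 0.93 on the 3 arrays, the highest of replica 2. In the limma fit the dye term was called for none of the clones tested, R90171, T75925 and T75931 included.

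Other clones were high on replica 3 alone. W43146 had log2 ratios of 0.31, 0.10 and 7.14 on replicas 1, 2 and 3, and its raw intensity was 564 in the W7 channel and 354 in the DMSO channel on replica 1, and 37415 and 326 on replica 3. AA042551 had 0.90, 0.44 and 5.82, and T43748 had 1.49, 0.44 and 5.24. With fitted log2 ratios of 2.46, 2.36 and 2.30 these were the largest that were not called, at adjusted p-values of 0.40, 0.29 and 0.28 in limma. In all 487 clones had a fitted log2 ratio of at least 1 in size, and 73 of them were not called. At the threshold itself, R90192 with a fitted log2 ratio of 0.70 was the last clone called and T22039 with -0.90 the first that was not (adjusted p = 0.050 for both).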
